A study of Caenorhabditis elegans with 18 samples.

Results

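The pqn and abu genes of Caenorhabditis elegans encode proteins rich in glutamine and asparagine, and 70 of the 46726 genes counted in this study carry one of these names. They were found by symbol alone, as every gene whose WormBase symbol is pqn or abu followed by a number. Of the 70, 14 are abu genes and 56 are pqn genes, and all are annotated as protein-coding. The libraries hold poly(A) RNA from whole, synchronized larvae of stage L4, the last before adulthood, with 3 replicates (A, B and C) of each of 6 genotypes. The genotypes are the fust-1 double mutant (fust-1; ceh-14), the tdp-1 double mutant (tdp-1; ceh-14), single mutants of each of the 3 genes, and the wild type.

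FUST-1 and TDP-1 are RNA-binding proteins, and CEH-14 is a LIM homeodomain transcription factor of neurons and some other cells. Per the strain list of the study, fust-1(csb21) is a deletion that carries a GFP marker expressed in pharyngeal muscle, tdp-1(csb38) is a deletion with a GFP marker of body wall muscle, and ceh-14(ch3) is a deletion. The labels name the genes but not the alleles. ch3 is the only ceh-14 allele of the strain list, but the study also used another one to check brood size. That the sequenced one was ch3 is therefore an assumption. The wild type carries none of these alleles, and no animal received a treatment.

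The abu genes take their name from activation in a blocked unfolded protein response, the program by which cells answer misfolded protein in the endoplasmic reticulum. Many abu genes and some pqn genes are paralogs that encode secreted components of the chitinous cuticle lining the pharynx, the feeding organ, and this lining is built anew at each larval molt. Some other pqn genes share with them only a prion-like stretch of glutamine and asparagine. Among these, PQN-41 is a polyglutamine protein that promotes the death of the linker cell, which leads the outgrowth of the male gonad. For the description, the members were divided into the abu paralog group, which holds the 14 abu genes and 8 pqn genes (pqn-2, pqn-13, pqn-54, pqn-57, pqn-63, pqn-74, pqn-75 and pqn-91), and the other 48 pqn genes, pqn-41 among them. The division came from general knowledge, since no protein sequence was at hand to test it. The other 48 may therefore hold further paralogs of the abu genes. pqn-76, pqn-78 and pqn-79 among them lie near abu-5 and have the same number of exon bases (1008), but they passed the filter on low counts in no fit.

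Counts in genes per library ranged from 19556372 to 119814176, with a median of 50634860. The mutated genes followed the labels: fust-1 stood at 42.2 to 51.6 CPM (the count scaled to a common, TMM-adjusted library total) in fust-1 double mutants and 35.9 to 50.7 in fust-1, against 144 to 171 in wild type. tdp-1 stood at 15.2 to 23.2 CPM in tdp-1 double mutants and 13.7 to 16.9 in tdp-1, against 84.2 to 111 in wild type. ceh-14 stood at 1.65 to 1.98 CPM in fust-1 double mutants, 0.675 to 2.47 in tdp-1 double mutants and 1.44 to 2.08 in ceh-14, against 5.33 to 5.84 in wild type. Some libraries stood apart from their replicates: 24.4% of genes in fust-1 C, 19.3% in fust-1 A, 13.1% in ceh-14 A, 13% in tdp-1 double mutant C and 12.1% in tdp-1 double mutant A differed more than 2-fold from the mean of the other two libraries. Libraries with the same letter deviated together in 6 of the 9 comparisons, all but the 3 that involve the fust-1 double mutant. For those 6, the fit with the letter as a block is given beside the fit without it wherever it changes a call. What the letter marks is not given in the sources used here. These are whole animals, so fewer cells of a type and less RNA per cell cannot be told apart.

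The genes of the abu paralog group were expressed at low levels and the other pqn genes ranged widely. Of the 22 genes of the group, 16 passed the filter on low counts in all 11 fits (9 comparisons and 2 interactions) and 6 passed in none (abu-2, abu-4, abu-5, abu-9, pqn-57 and pqn-91). Of the other 48 genes, 41 passed in all 11 fits, pqn-71 in 4 of them, and 6 in none (pqn-10, pqn-16, pqn-76, pqn-78, pqn-79 and pqn-90). The 12 genes that passed in none held from 0 to 65 counts over all 18 libraries. pqn-76 and pqn-79 had 0 counts in every library, where 3 counts correspond to 0.0259 to 0.158 CPM. With pqn-78 (1 count) and abu-5 (3 counts) they lie close together on chromosome IV, at chrIV:15579086-15580161, chrIV:15595570-15596645, chrIV:15593960-15595035 and chrIV:15590697-15591772 (WBcel235). Each of these 4 genes has 1008 exon bases. Reads placed at more than 1 position were not counted by the authors and made up 5.89% to 12.2% of records, so the levels of near-identical copies are uncertain. Exons of pqn-57, abu-2, pqn-78, pqn-90 and abu-9 overlap a gene on the opposite strand over 64%, 37.4%, 36.4%, 25.8% and 25.5% of their length. Since the strand setting of the counting was not given, their reads and those of the antisense gene cannot be told apart. Among tested genes the overlap was 10.7% in abu-1 and 10.3% in pqn-75.

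Of the 22 genes in the abu paralog group, 10 lie on chromosome V and 5 on X. abu-15 (chrV:5158602-5159907), abu-6 (chrV:5160678-5161892), abu-7 (chrV:5163270-5164782) and abu-8 (chrV:5192995-5194608) are neighbours there, and so are abu-1 (chrV:10380340-10381826) and pqn-2 (chrV:10382442-10384063). CPM per kilobase of exon, which allow levels to be compared between genes, averaged from 0.702 (pqn-13) to 5.74 (abu-14) over the 18 libraries in the 16 tested genes of the group. In the 41 other tested genes they ranged from 0.102 (pqn-73) to 298 (pqn-59). pqn-59, the worm counterpart of human UBAP2L, and pqn-52, at 161 CPM per kilobase, were the most abundant members. pqn-41 stood at 7.88 CPM per kilobase over the 18 libraries. In tdp-1 the means of abu-14 (16.6), pqn-74 (14.8) and abu-13 (10.1 CPM per kilobase) stood above that of pqn-41 (9.01). For abu-14 and pqn-74 this order of the means rested on the A library. abu-14 had 53.0 CPM in tdp-1 A but 13.3 and 3.74 CPM in B and C. pqn-74 ranged from 51.7 CPM in tdp-1 A to 3.19 CPM in C, whereas pqn-41 stayed between 60.4 and 62.6 CPM.

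**Figure D1:**
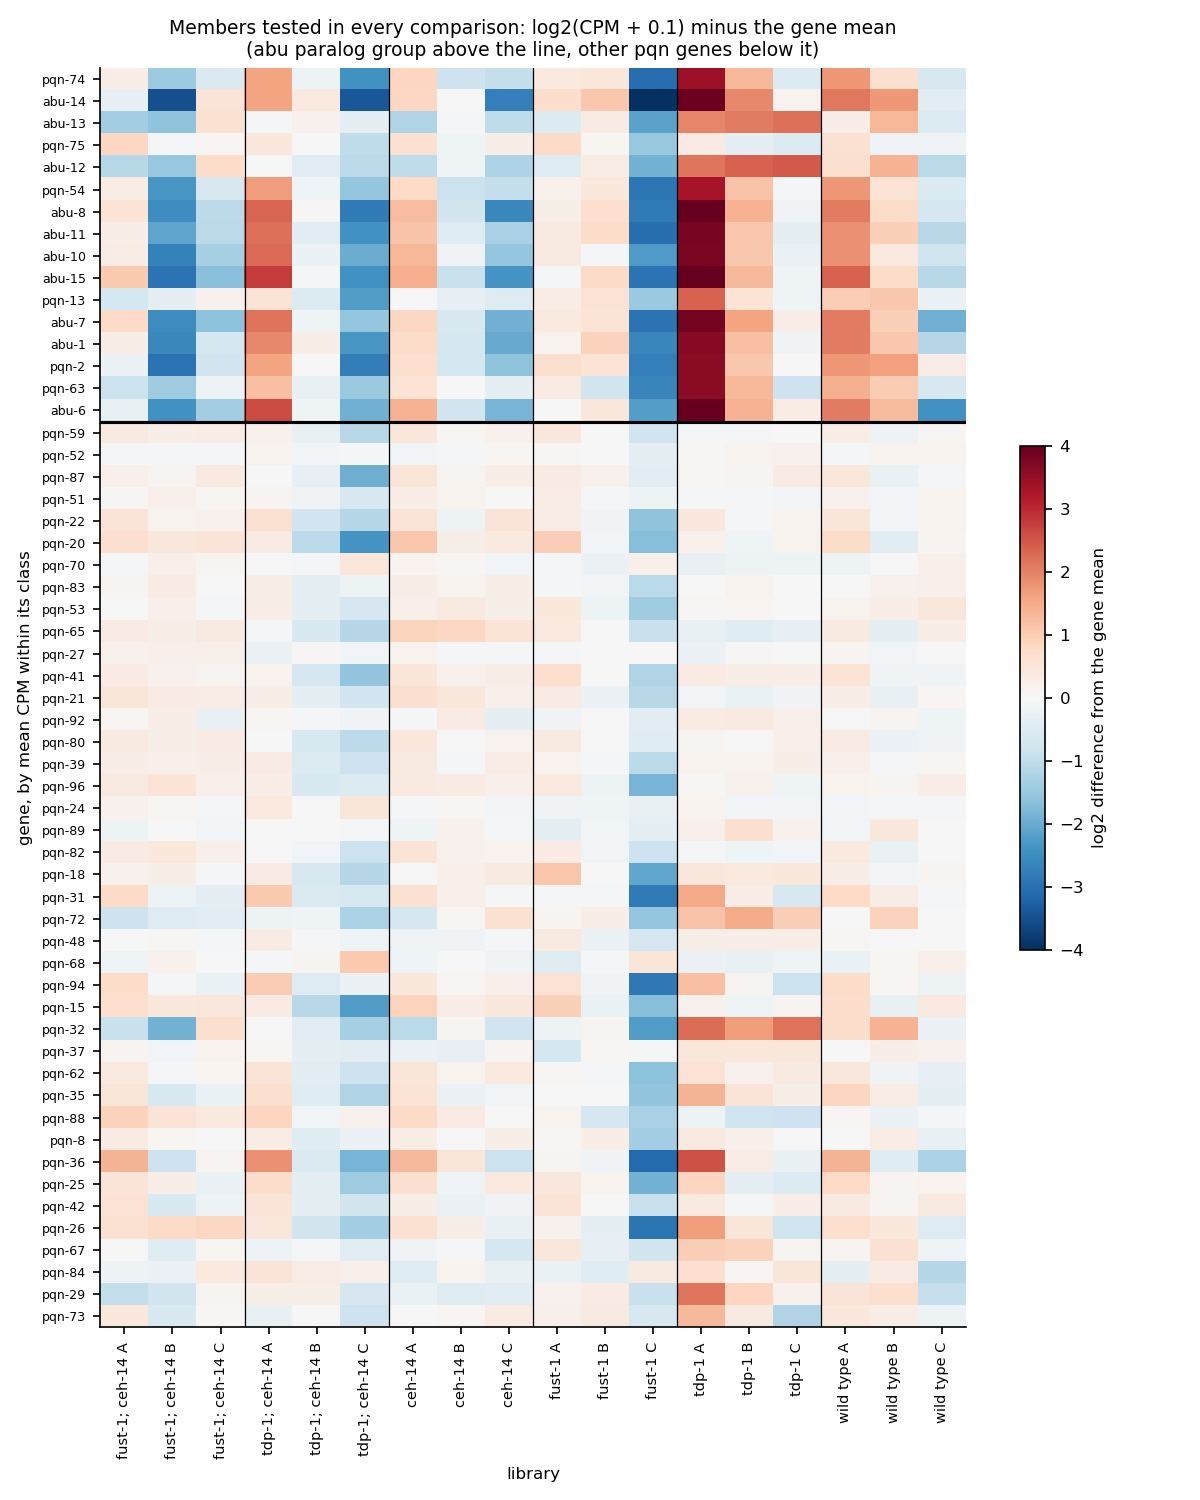
Level of each member tested in every fit (rows, abu paralog group above the line, other pqn genes below it) in each of the 18 libraries (columns, by genotype and replicate letter), as log2(CPM + 0.1) minus the mean of that gene over all libraries (colour). The tdp-1 A column is high across most of the abu paralog group, and the fust-1 C column is low in that group and in most of the other pqn genes.

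Most genes of the abu paralog group varied widely between the replicates of a genotype. Summed over the 22 genes, the group held 32.8, 10.8 and 30.1 CPM in libraries A, B and C of fust-1 double mutants and 84.7, 29.6 and 9.62 CPM in tdp-1 double mutants. The single mutants held 47.4, 23.7 and 15.6 CPM (ceh-14), 38.3, 43.6 and 4.68 CPM (fust-1) and 289, 86.5 and 53.8 CPM (tdp-1). The wild type held 89.5, 62.6 and 20.1 CPM. The highest library was tdp-1 A and the lowest was fust-1 C. Every mutant genotype overlapped the wild type, and the means ± SD were 24.6 ± 12 CPM in fust-1 double mutants, 41.3 ± 38.9 in tdp-1 double mutants, 28.9 ± 16.5 in ceh-14, 28.9 ± 21.1 in fust-1 and 143 ± 127 in tdp-1, against 57.4 ± 35 in wild type (n = 3 each). The other 48 pqn genes together held 2910 ± 72.3 CPM in fust-1 double mutants, 2160 ± 658 in tdp-1 double mutants, 2960 ± 272 in ceh-14, 2400 ± 777 in fust-1 and 2660 ± 52.0 in tdp-1, against 2710 ± 300 in wild type.

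**Figure D2:**
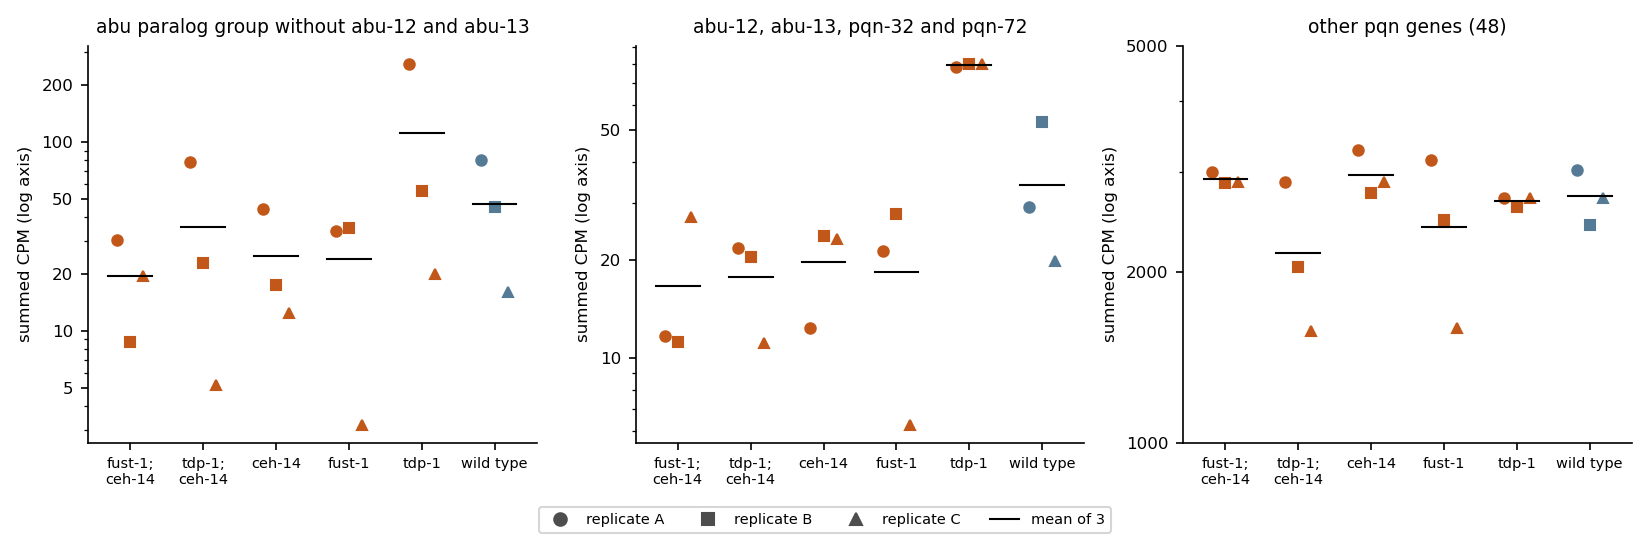
Summed CPM (vertical log axes) in each library of the abu paralog group without abu-12 and abu-13, of abu-12, abu-13, pqn-32 and pqn-72, and of the other 48 pqn genes, by genotype (horizontal axes), with replicates as symbols and lines at the mean of 3. For abu-12, abu-13, pqn-32 and pqn-72 the 3 tdp-1 libraries sit between 78.2 and 80.2 CPM, whereas in the abu paralog group without abu-12 and abu-13 tdp-1 A stands far above tdp-1 B (55.2 CPM) and C (20 CPM).

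abu-14 (chrII:9225186-9227214) and pqn-74 (chrIV:13329507-13331406), show this spread. They had the highest CPM per kilobase of the group over the 18 libraries (5.74 and 5.55), with tdp-1 A as their highest library. In fust-1 double mutants pqn-75 (3.06 CPM per kilobase) stood above pqn-74 (2.34) and abu-14 (1.86). abu-14 stood at 2.67, 0.206 and 4.96 CPM in fust-1 double mutants A, B and C, 10.4, 4.51 and 0.235 in tdp-1 double mutants, 6.10, 3.49 and 0.431 in ceh-14, 5.59, 7.31 and 0.0491 in fust-1 and 53.0, 13.3 and 3.74 in tdp-1, against 15.1, 11.7 and 2.53 in wild type. pqn-74 stood at 5.74, 1.68 and 3.14 CPM in fust-1 double mutants, 14.3, 4.08 and 0.807 in tdp-1 double mutants, 8.79, 2.65 and 2.41 in ceh-14, 6.20, 6.58 and 0.491 in fust-1 and 51.7, 12 and 3.19 in tdp-1, against 16.2, 7.45 and 3.01 in wild type. In both genes the C library was the lowest in every genotype except the fust-1 double mutant, and tdp-1 A exceeded every other library. The highest library of a genotype exceeded its lowest by 5.95-fold (wild type) to 149-fold (fust-1) for abu-14. The 149-fold rested on only 3 counts of abu-14 in fust-1 C. Outside fust-1 the largest value was 44.1-fold, in tdp-1 double mutants.

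The same order of libraries held across the group. Of the 14 tested genes other than abu-12 and abu-13, the A library was the highest in 14 in tdp-1 double mutants, 14 in ceh-14, 14 in tdp-1 and 13 in wild type, but in 11 in fust-1 double mutants and 4 in fust-1. The C library was the lowest in 14 in tdp-1 double mutants, 13 in ceh-14, 14 in fust-1, 14 in tdp-1 and 14 in wild type, and in 0 in fust-1 double mutants. abu-8 had 24.7, 3.92 and 1.29 CPM in tdp-1 A, B and C, against 6.34, 2.43 and 0.844 CPM in wild type. abu-11 had 20.4, 3.0 and 1.06 CPM in tdp-1, against 5.19, 2.79 and 0.580 CPM in wild type. pqn-54 had 20.3, 4.42 and 1.90 CPM in tdp-1, against 6.82, 2.91 and 1.27 CPM in wild type. In these genes only the A library of tdp-1 exceeded all 3 wild-type libraries.

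Each mutant was set against wild type with edgeR's quasi-likelihood test, with Benjamini-Hochberg adjustment across every tested gene and a call at an adjusted p under 0.05. No pqn or abu gene was called in any of the 5 comparisons. In fust-1 double mutants against wild type, 0.351% of all tested genes were called. An unadjusted p under 0.05 was found for 7 of 57 members (12.3%) and 8.83% of all genes. DESeq2 called 2 of 58 members there, pqn-2 and pqn-72, both as falls, and 1.54% of all genes to which it gave an adjusted p. In tdp-1 double mutants 0.12% of genes were called, and 1 of 57 members had an unadjusted p under 0.05 beside 7.72% of all genes. In ceh-14 0.092% were called, with 7 of 57 members (12.3%) beside 4.03% of all genes at the unadjusted threshold. In fust-1 the values were 0.0184% called, 0 of 57 members and 2.05% of all genes. DESeq2 called 0 members in these 3 comparisons. In tdp-1 0.128% of genes were called, and at the unadjusted threshold the 6 of 58 members (10.3%) lay below the 19.2% of all genes. DESeq2 called 4 of 58 members there (6.9%), the rises of abu-12, abu-13, pqn-32 and pqn-72, beside 5.1% of all genes.

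The abu paralog group nevertheless lay mostly to one side in these comparisons, without passing the test. Over its 16 tested genes the median log2 fold change was -1.84 in fust-1 double mutants (15 of 16 lower), -0.43 in tdp-1 double mutants (14 lower), -1.17 in ceh-14 (15 lower), -1.21 in fust-1 (16 lower) and 1.47 in tdp-1 (15 higher), each against wild type. The medians of all genes tested were -0.01, 0, -0.02, 0.02 and 0.01 in the same order of mutants. The other pqn genes had medians of 0.10, -0.34, 0.07, -0.27 and 0.11. The 5 comparisons share the wild-type libraries. The standard error (SE) of single genes of the group in the comparison of fust-1 ran up to 1.24 (abu-7) on the log2 scale.

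**Figure D3:**
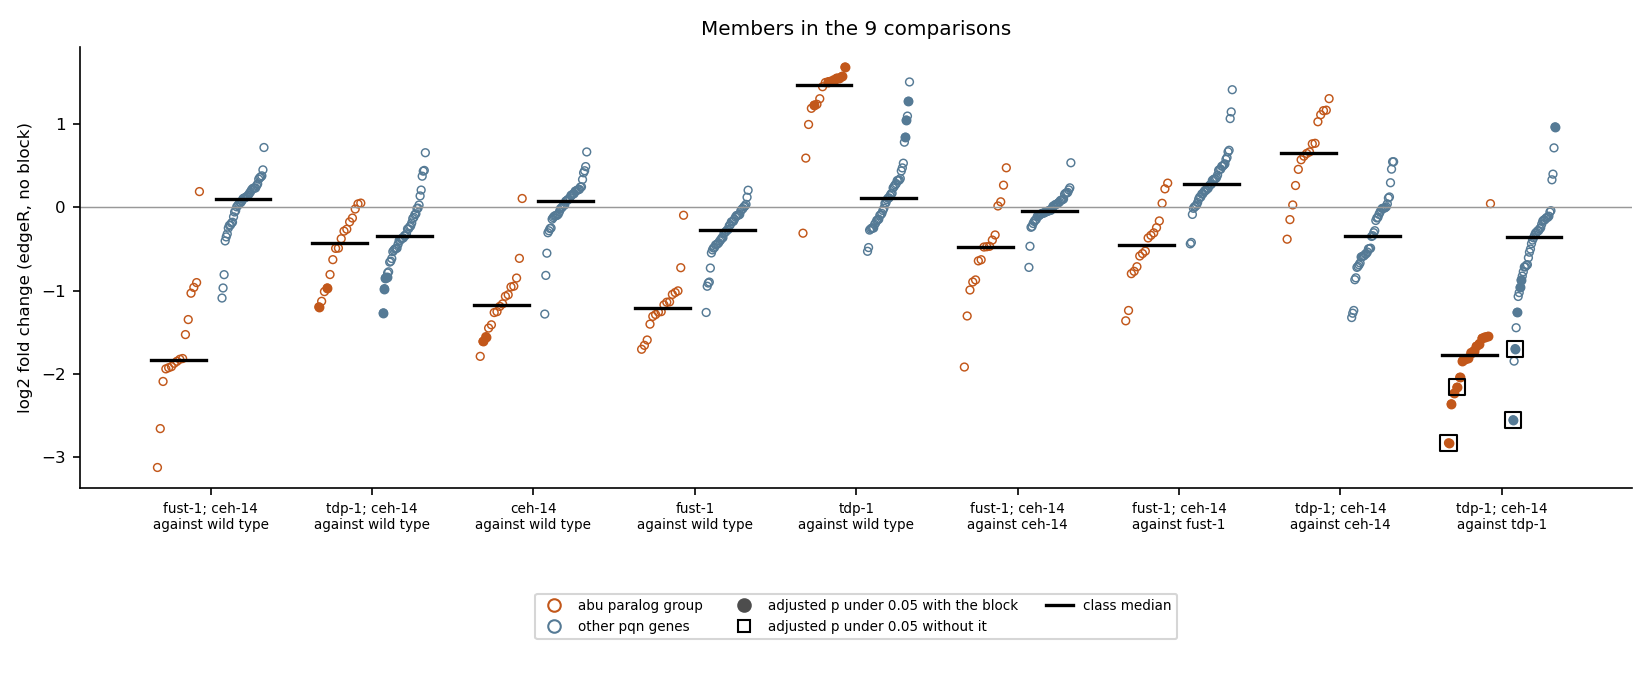
Log2 fold change from the fit without the letter as a block (vertical axis) of each tested member in the 9 comparisons (horizontal axis), in orange for the abu paralog group and blue for the other pqn genes, with lines at the median of each. Filled points passed an adjusted p of 0.05 with the block and squares without it, and the squares mark 4 falls in tdp-1 double mutants against tdp-1.

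When each mutant library was set against the wild-type library of the same letter, the direction differed between letters in some genotypes. In fust-1 double mutants 15, 15 and 5 of the 16 genes were lower than wild type in letters A, B and C, although the letters did not pair libraries there. The median log2 ratios were -1.65, -3.46 and 0.29. In fust-1 double mutant B most of these genes held few reads, from 0 counts (abu-6) to 9 (pqn-54). In ceh-14 16, 16 and 13 of 16 were lower, with medians of -0.96, -1.54 and -0.35. In fust-1 15, 14 and 15 were lower, and in tdp-1 double mutants 10, 15 and 12. In tdp-1 15, 13 and 13 of 16 were higher, with medians of 1.82, 0.47 and 0.59 in letters A, B and C.

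The members at the ends of the range against wild type were genes of the abu paralog group on one side and other pqn genes on the other in 3 of the 5 comparisons. In fust-1 double mutants the lowest log2 fold changes were those of abu-6 (-3.12, SE 1.21), pqn-2 (-2.65, 0.79) and abu-1 (-2.09, 0.94), and the highest those of pqn-88 (0.72, 0.21), pqn-26 (0.45, 0.34) and pqn-21 (0.38, 0.16). The lowest values rested on few reads. Libraries A, B and C of fust-1 double mutants held 8, 0 and 5 counts of abu-6, 13, 0 and 17 of pqn-2, and 20, 1 and 19 of abu-1. pqn-2 had 0.561, 0 and 0.356 CPM in fust-1 double mutants A, B and C, against 2.48, 2.31 and 0.844 CPM in wild type, so the groups did not overlap (adjusted p = 0.4 in edgeR, 0.0244 in DESeq2). It is the single gene of the 16 whose 3 libraries were all below wild type in that comparison, where 8.95% of all genes tested in every fit were. In ceh-14 the ends were pqn-2 (-1.79), abu-1 (-1.61) and abu-14 (-1.55), and pqn-65 (0.66), pqn-88 (0.49) and pqn-21 (0.44). In fust-1 they were abu-6 (-1.70), pqn-63 (-1.66) and abu-15 (-1.59), and pqn-84 (0.20), pqn-18 (0.12) and pqn-68 (0.03). In tdp-1 double mutants they were pqn-32 (-1.27), pqn-13 (-1.20) and abu-12 (-1.13), and pqn-84 (0.65), pqn-68 (0.44) and pqn-88 (0.43). In tdp-1 they were pqn-88 (-0.53), pqn-65 (-0.48) and pqn-75 (-0.31), and abu-12 (1.68), abu-8 (1.57) and abu-10 (1.55). The lowest adjusted p of any member in these comparisons was 0.142 (edgeR), for abu-13 in tdp-1.

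With the letter as a block the test called some of these genes. In ceh-14 against wild type abu-1 (log2 fold change -1.61, adjusted p = 0.0368, edgeR) and abu-14 (-1.72, adjusted p = 0.0152) fell, beside 1.28% of all genes called. Leaving out the libraries of letter A, B or C gave 5, 1 and 19 called members, beside 2.17%, 1.06% and 7.12% of all genes. The call of abu-1 was lost without A and without B. In tdp-1 double mutants against wild type 6 members fell, abu-14 (-1.48), pqn-13 (-1.38), pqn-15 (-1.24), pqn-32 (-1.23), pqn-20 (-1.14) and pqn-72 (-0.87), beside 3.93% of all genes called. Without letter A, B or C 7, 7 and 4 members fell, beside 1.72%, 9.88% and 3.17% of all genes called, and 6, 4 and 3 of the 6 named falls were among them. In tdp-1 against wild type 10 members rose, beside 5.65% of all genes called. They were 7 of the abu paralog group, abu-12 (1.86), abu-13 (1.69), abu-7 (1.51), abu-15 (1.33), abu-10 (1.27), abu-8 (1.22) and pqn-54 (0.996), and pqn-32 (1.38), pqn-36 (1.04) and pqn-72 (0.89). Without the libraries of letter A 2 of 57 members were called (abu-12 and abu-13), a share of 3.51% beside 3.79% of all genes. Without B 17 rises were called, beside 6.76% of all genes, and without C 0, beside 0.0301%. In fust-1 against wild type the block gave 0 calls among members. An unadjusted p under 0.05 was found there for 17 of 57 members (29.8%) and 5.8% of all genes.

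Between tdp-1 double mutants and tdp-1, 4 of 58 tested members passed the test, where 3.67% of all genes were called. They were abu-12, abu-13, pqn-32 and pqn-72, and all 4 fell. abu-12 (chrX:450446-457610) and abu-13 (chrIII:6941888-6945898) were placed in the abu paralog group by their names. Whether they encode parts of the pharyngeal lining was not tested. pqn-32 (chrII:13108019-13110169) and pqn-72 (chrI:3269397-3280883) belong to the other pqn genes. abu-13 had 4.21, 4.89 and 3.33 CPM in tdp-1 double mutants A, B and C, against 17.2, 18.4 and 20.1 CPM in tdp-1. Its log2 fold change was -2.16 (SE 0.20, adjusted p = 0.0063, edgeR). abu-12 had 2.44, 1.80 and 1.11 CPM in tdp-1 double mutants, against 11.2, 12.9 and 13.7 CPM in tdp-1, a log2 fold change of -2.83 (SE 0.30, adjusted p = 0.00722, edgeR). In both genes every tdp-1 double mutant library lay below every tdp-1 library, as in 15.7% of all genes tested in every fit. Both calls held without each of the 6 libraries in turn.

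pqn-32 had 5.37, 3.92 and 2.04 CPM in tdp-1 double mutants, against 25, 17.1 and 23.9 CPM in tdp-1 (log2 fold change -2.55, SE 0.36, adjusted p = 0.0117, edgeR). Its call was lost without tdp-1 double mutant B (adjusted p = 0.0714). pqn-72 had 9.82, 9.89 and 4.59 CPM in tdp-1 double mutants, against 24.8, 31.8 and 22.3 CPM in tdp-1 (-1.70, SE 0.31, adjusted p = 0.0316, edgeR). Its call was lost without tdp-1 double mutant B (0.0919) or without tdp-1 A (0.0883), B (0.108) or C (0.0736). In a fit of all 18 libraries together abu-12 alone kept its call, with adjusted p-values of 0.0813 for abu-13, 0.0522 for pqn-32 and 0.0521 for pqn-72. The count of members called was 16 without tdp-1 double mutant A and 2 without tdp-1 double mutant B. The share of all genes called in these fits is not given, so these counts are no result about the members. DESeq2 called 5 of 59 members (8.47%), near its 8.09% of all genes. They were falls of the same 4 genes and of pqn-37, which had 7.86, 5.80 and 5.44 CPM in tdp-1 double mutants against 10.2, 10.3 and 10.3 CPM in tdp-1.

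These 4 genes varied little within tdp-1. The highest tdp-1 library exceeded the lowest by 1.17-fold for abu-13, 1.22-fold for abu-12, 1.43-fold for pqn-72 and 1.46-fold for pqn-32. It was 1.88-fold for pqn-75 and from 6.2-fold (pqn-13) to 28.7-fold (pqn-63) for the 13 remaining tested genes of the abu paralog group. Among the other pqn genes tested in every fit it ran from 1.01-fold (pqn-37) to 13.7-fold (pqn-73), with 1.04-fold for pqn-41. The test that called the 4 genes favours a small spread within a genotype. All 3 tdp-1 libraries lay above all 3 wild-type libraries for each of the 4, as they did for 12.7% of all genes tested in every fit. abu-13 stood at 5.24, 11 and 2.95 CPM and pqn-32 at 8.72, 14 and 4.48 CPM in wild type A, B and C, with the B library highest. Summed over the 4 genes the level was 16.7 ± 9.04 CPM in fust-1 double mutants, 17.8 ± 5.84 in tdp-1 double mutants, 19.8 ± 6.42 in ceh-14, 18.5 ± 11 in fust-1 and 79.4 ± 1.08 in tdp-1, against 34 ± 17 in wild type (SD, n = 3 each). The 4 genes were summed because of their calls, so this sum is a description.

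**Figure D4:**
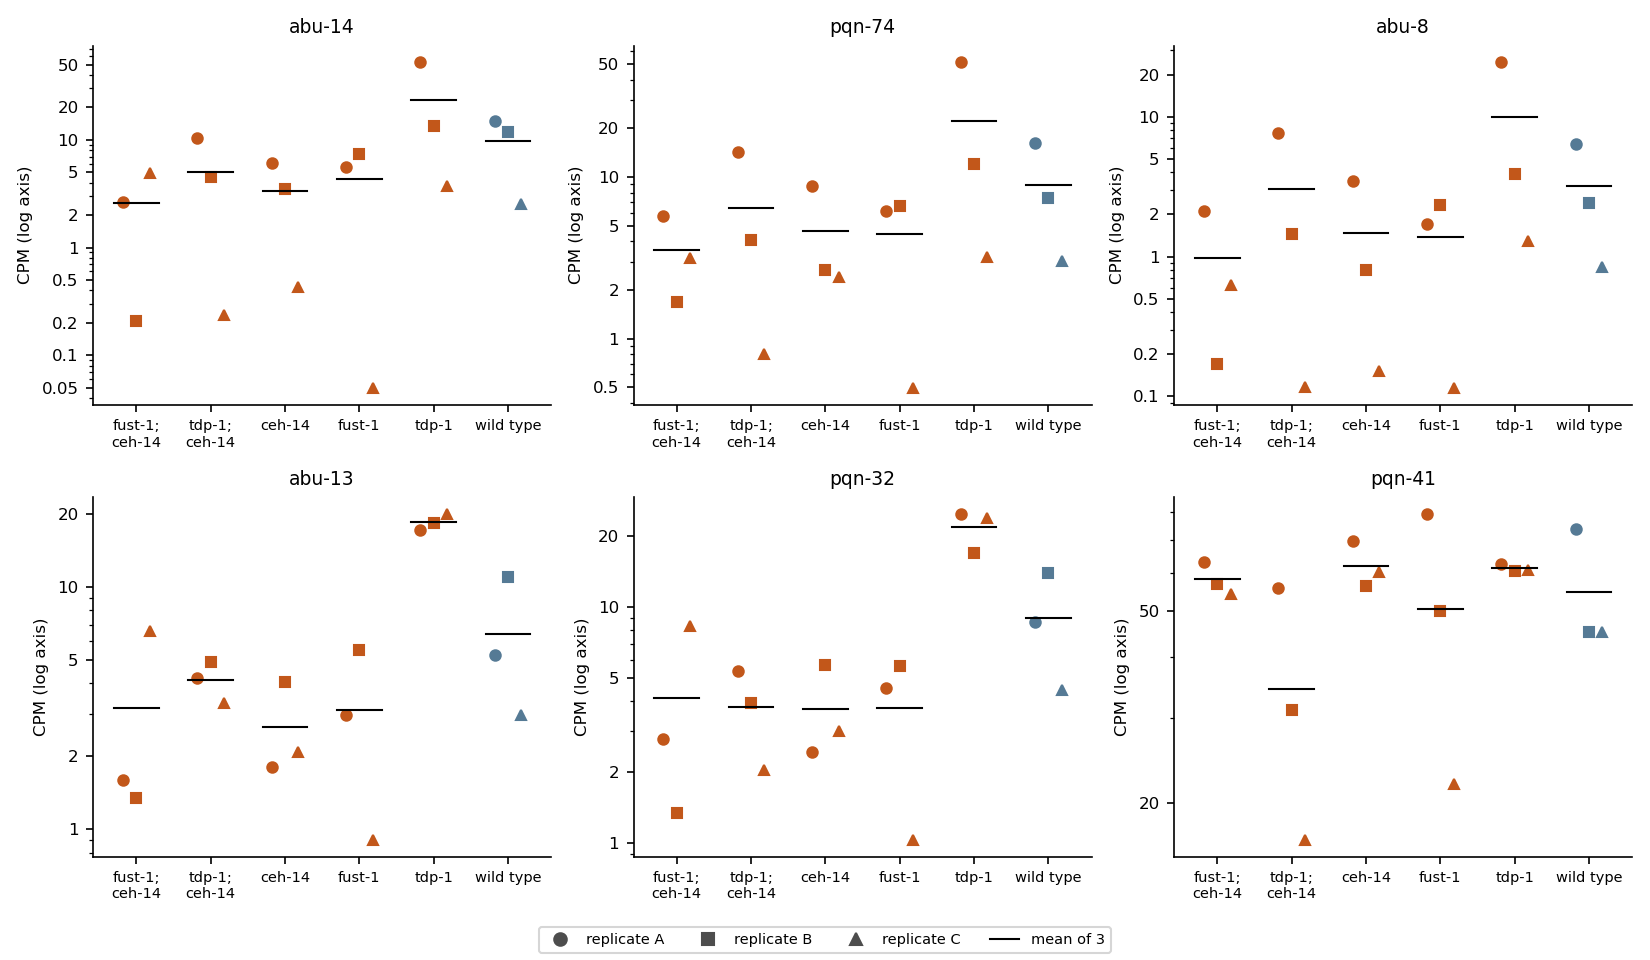
CPM (vertical axes, log scale) of abu-14, pqn-74, abu-8, abu-13, pqn-32 and pqn-41 in each library by genotype (horizontal axes), with replicates A, B and C as circles, squares and triangles and lines at the mean of 3. abu-14, pqn-74 and abu-8 spread widely within tdp-1, abu-13 stands at 17.2 to 20.1 CPM in all 3 tdp-1 libraries, and pqn-41 is lowest in tdp-1 double mutant C and fust-1 C.

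Over the 16 tested genes of the abu paralog group the median log2 fold change of tdp-1 double mutants against tdp-1 was -1.77, with 15 of 16 lower, beside -0.35 for the other pqn genes and 0.02 for all genes tested. Against the tdp-1 library of the same letter 15, 15 and 16 of the 16 genes were lower in letters A, B and C, with median log2 ratios of -1.72, -1.51 and -2.47. With the letter as a block 20 members fell and pqn-88 rose (log2 fold change 0.95), beside 7.3% of all genes called. The falls took in 15 of the 16 tested genes of the abu paralog group, all but pqn-75, and 5 other genes, pqn-26, pqn-32, pqn-35, pqn-36 and pqn-72. Among them were abu-14 (-2.44), pqn-2 (-2.06), abu-8 (-1.94), abu-7 and pqn-63 (-1.92 each), abu-6 (-1.88), abu-11 (-1.81), abu-15 (-1.79), pqn-74 (-1.78), pqn-13 (-1.77), abu-1 (-1.73), abu-10 (-1.62) and pqn-54 (-1.55). The 3 other genes outside the first 4 had values of -1.13 (pqn-26), -1.07 (pqn-36) and -1.06 (pqn-35). Without the libraries of letter A, B or C the block fit called 29, 21 and 25 falls, beside 16.9%, 6.3% and 11.9% of all genes called. Without the block and without tdp-1 A, 7 of these genes had log2 fold changes above 0, from 0.084 (abu-1) to 0.71 (abu-15).

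In the remaining comparisons between double and single mutants no member was called by edgeR. Against ceh-14, fust-1 double mutants had 0.0308% of all genes called, and 2 of 57 members had an unadjusted p under 0.05 beside 2.25% of all genes. tdp-1 double mutants had 0.00594% called, and 3 of 57 members beside 9.09% of all genes at the unadjusted threshold. Against fust-1, fust-1 double mutants had 0.0494% called, and 1 of 57 members beside 5.04% of all genes. DESeq2 called 1 member in these 3 comparisons, pqn-65 in tdp-1 double mutants against ceh-14, where it called 0.185% of all genes. pqn-65 had 64.5, 44.3 and 30.3 CPM in tdp-1 double mutants, against 125, 120 and 98.1 CPM in ceh-14 (log2 fold change -1.32, SE 0.28, adjusted p = 0.437 in edgeR, 0.0893 with the block and 0.0234 in DESeq2). The groups did not overlap, and 8.87% of all genes were likewise lower in all 3 libraries. The abu paralog group had median log2 fold changes of -0.48 (fust-1 double mutants against ceh-14), -0.45 (against fust-1) and 0.65 (tdp-1 double mutants against ceh-14). The direction differed between letters. Against ceh-14, 15, 12 and 3 of the 16 genes were higher in tdp-1 double mutants in letters A, B and C, and 1, 1 and 15 in fust-1 double mutants. In letter C all 16 genes were higher in the fust-1 double mutant than in fust-1, with a median log2 ratio of 2.48. In letter B all 16 were lower, with a median of -3.17, and most of them held 9 counts or fewer in the fust-1 double mutant. The letters did not pair libraries in the comparisons of fust-1 double mutants, and fust-1 C was the library furthest from its replicates. These are therefore ratios of single libraries, in genes that varied together.

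The interaction tests asked whether the log2 change of a double mutant differed from the sum of the changes of its single mutants. No member was called for fust-1 and ceh-14 or for tdp-1 and ceh-14, where 0.0237% and 0.0405% of all genes were called, and DESeq2 called 0 in both. An unadjusted p under 0.05 was found for 0 of 58 members and 1.83% of all genes for fust-1 and ceh-14, and for 4 of 58 members (6.9%) and 11.1% of all genes for tdp-1 and ceh-14. For tdp-1 and ceh-14 all 16 tested genes of the abu paralog group had negative values, with a median of -0.62. abu-12 had -1.42 (SE 0.70, adjusted p = 0.445, edgeR) and abu-13 had -0.90 (0.58, 0.503). For fust-1 and ceh-14 15 of 16 had positive values, with a median of 0.70.

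pqn-75 (chrIV:4072327-4077645) did not follow the rest of the abu paralog group. It had 8.50, 4.6 and 4.98 CPM in fust-1 double mutants, 6.34, 4.73 and 2.30 in tdp-1 double mutants, 7.29, 4.24 and 5.62 in ceh-14, 8.16, 5.02 and 1.59 in fust-1 and 6.05, 3.67 and 3.23 in tdp-1, against 7.36, 4.32 and 4.27 in wild type. All genotypes overlapped the wild type, and between tdp-1 double mutants and tdp-1 the log2 fold change was 0.04 (SE 0.40, adjusted p = 0.956, edgeR). Its highest library was fust-1 double mutant A, where 13 of the 16 tested genes of the group had theirs in tdp-1 A.

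pqn-41 (chrIII:1905958-1939570, 24 exon segments) was not called in any of the 11 fits. It had 63.2, 56.9 and 54.1 CPM in fust-1 double mutants, 55.6, 31.1 and 16.7 in tdp-1 double mutants, 69.8, 56.2 and 60.1 in ceh-14, 79.5, 49.9 and 21.8 in fust-1 and 62.6, 60.4 and 60.6 in tdp-1, against 73.9, 45.1 and 45.1 in wild type. The tdp-1 libraries were nearly equal, and the lowest values were those of tdp-1 double mutant C and fust-1 C, both among the libraries that stood apart. In order of the mean, ceh-14 (62.0 ± 7.03), tdp-1 (61.2 ± 1.20), fust-1 double mutants (58.1 ± 4.63), wild type (54.7 ± 16.6), fust-1 (50.4 ± 28.8) and tdp-1 double mutants (34.5 ± 19.7 CPM) each differed from the next by less than the larger SD of the pair. Every tdp-1 double mutant library lay below every tdp-1 and every ceh-14 library, as in 15.7% and 8.87% of all genes tested in every fit.

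Against tdp-1, pqn-41 in tdp-1 double mutants had a log2 fold change of -0.83 (SE 0.38, adjusted p = 0.242, edgeR) and -0.99 with the block (0.0896). Leaving out tdp-1 double mutant A gave -1.35 and a call (adjusted p = 0.0348). With the block pqn-41 was also called without letter A and without letter C, beside 16.9% and 11.9% of all genes, but not without B. Against wild type the value was -0.66 (SE 0.43, adjusted p = 0.663) and -0.79 with the block (0.053), and against ceh-14 it was -0.87 (0.39, 0.437). Of the blocked fits against wild type that leave out a letter, only the one without B called pqn-41, beside 9.88% of all genes. The interaction of tdp-1 and ceh-14 was -1.01 (SE 0.48, adjusted p = 0.445). In fust-1 double mutants the values were 0.11 against wild type, -0.11 against ceh-14 and 0.20 against fust-1, with adjusted p-values of 0.877, 1 and 0.913 (edgeR). Counts per gene hold no exon levels, so splicing of pqn-41 was not analysed here.

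pqn-59, pqn-87 and pqn-20, among the 8 most abundant other pqn genes, had their lowest level in the same library as pqn-41. pqn-59 had 856, 779 and 813 CPM in fust-1 double mutants, 749, 546 and 311 in tdp-1 double mutants, 911, 712 and 753 in ceh-14, 897, 659 and 382 in fust-1 and 646, 643 and 671 in tdp-1, against 805, 586 and 697 in wild type. pqn-87 had 77.1 to 303 CPM in tdp-1 double mutants, against 316 to 375 CPM in tdp-1. pqn-20 had 137, 52.8 and 21.2 CPM in tdp-1 double mutants, against 124, 97.8 and 121 CPM in tdp-1. In all 3 the C library of tdp-1 double mutants was the lowest of the 18. pqn-70 was lowest in tdp-1 A (95.6 CPM) and stood at 137 CPM in fust-1 C. Over the 41 tested other genes the lowest library was fust-1 C in 25 and tdp-1 double mutant C in 9.

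pqn-52 kept a narrow range. It averaged 346 ± 31.9 CPM in tdp-1 double mutants, against 377 ± 16.1 CPM in tdp-1 and 366 ± 25.9 CPM in wild type, and lay between 264 and 390 CPM in all 18 libraries. The range was wider for pqn-51 (86.9 to 164 CPM), pqn-83 (47.3 to 127 CPM) and pqn-22 (40.8 to 192 CPM). pqn-70 (chrV:11226314-11228703) ran the other way from the abu paralog group. It had 120, 114 and 163 CPM in tdp-1 double mutants, against 95.6, 103 and 104 CPM in tdp-1 and 104, 119 and 137 CPM in wild type. All 3 tdp-1 double mutant libraries lay above the tdp-1 libraries, as did 16.5% of all genes (log2 fold change 0.40, SE 0.17, adjusted p = 0.226, edgeR).

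Across the 18 libraries the abu paralog group varied together. Pearson's r of log2 CPM with the summed level of the group was above 0.8 for 13 of its 16 tested genes (median 0.938), each of which is part of that sum, and for 4 of the 41 other genes (pqn-35 0.936, pqn-29 0.868, pqn-36 0.849 and pqn-32 0.823, median of all 41 0.549). The 3 genes of the group below 0.8 were abu-12, abu-13 and pqn-75. pqn-70 (-0.752) and pqn-68 (-0.662) had the lowest values. The genes outside the members most like the group were idpc-6 (0.975), idpc-1 (0.968), idpc-5 (0.968), idpc-4 (0.962) and lron-2 (0.954). The idpc genes encode intrinsically disordered proteins assigned to the pharyngeal cuticle. idpc-1 had 7.50, 3.95 and 0.543 CPM in tdp-1 double mutants, against 32, 9.23 and 3.74 CPM in tdp-1 and 9.0, 6.55 and 1.90 CPM in wild type. These values are descriptions over 18 libraries that share letters and differ in depth.

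**Figure D5:**
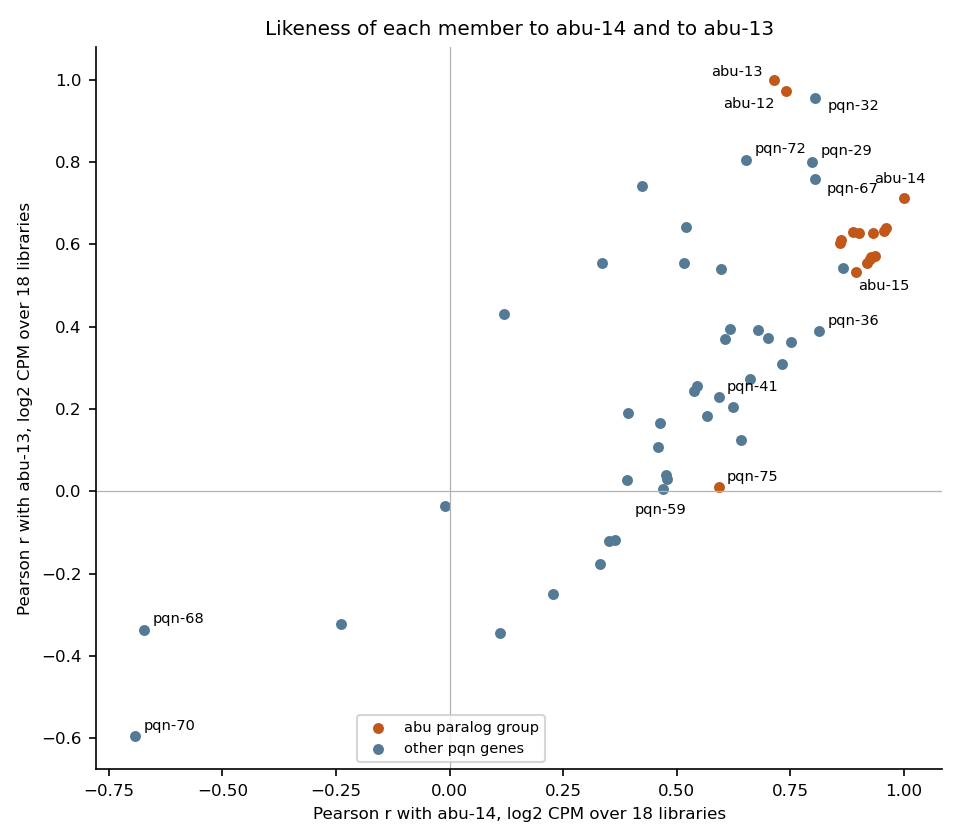
Pearson's r of log2 CPM over the 18 libraries of each tested member with abu-14 (horizontal axis) and with abu-13 (vertical axis), the abu paralog group and the other pqn genes in different colours. abu-12, pqn-32 and pqn-72 lie with abu-13 at the top, most of the abu paralog group lies at the right near abu-14, and pqn-70 and pqn-68 lie at the lower left. abu-13 and abu-14 have r = 1 with themselves.

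abu-13 was followed by another set. The non-members most like it were Y53F4B.27 (r = 0.987), mlt-8 (0.984), F46C8.8 (0.983), tag-297 (0.981) and agmo-1 (0.981), and among the 41 other pqn genes 3 had r above 0.8 with it. mlt-8, a gene of the molting cycle, had 7.81, 11.5 and 8.64 CPM in tdp-1 double mutants, against 39.4, 29.9 and 38.0 CPM in tdp-1 and 10.9, 23.5 and 6.70 CPM in wild type. The groups did not overlap between tdp-1 double mutants and tdp-1 (log2 fold change -1.93, SE 0.21, adjusted p = 0.00798, edgeR). Of all genes tested in every fit, 15.7% were likewise lower in every tdp-1 double mutant library. pqn-41 was followed by 14 of the 41 other pqn genes, itself included, at r above 0.8, with pqn-20 (0.963), pqn-15 (0.956) and pqn-59 (0.941) the closest, and by 0 of the 16 genes of the abu paralog group. Its most alike non-members were pac-1 (0.991), kcc-1 (0.989), gei-3 (0.986), mig-38 (0.986) and gld-2 (0.985).

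Lists of related genes, written from general knowledge, were read beside the members by counts. Of the 29 genes of the molting cycle list, 21 fell in tdp-1 double mutants against tdp-1 (median log2 fold change -2.05, 23 with the block), where 3.67% of all genes were called. Its most abundant members are sqt-3 and sqt-1, cuticle collagens, nas-37, a protease of molting, and nhr-23, a nuclear receptor that drives molts. sqt-3 had 34.7, 40.7 and 19.5 CPM in tdp-1 double mutants, against 147, 151 and 175 CPM in tdp-1 and 57.7, 100 and 34.2 CPM in wild type. Its log2 fold change was -2.32 (SE 0.27, adjusted p = 0.00861, edgeR), and that of sqt-1 -2.11 (0.25, 0.00861). nas-37 (0.12) and nhr-23 (-0.31) were not called. Summed over the molting list, tdp-1 double mutants held 215 to 285 CPM, against 624 to 962 CPM in tdp-1 and 261 to 518 CPM in wild type. In tdp-1 against wild type the list had a median of 1.37, with 0 of 29 genes called, and 14 rises with the block.

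Of 36 tested genes of the chitin and pharyngeal cuticle list, 1 fell in tdp-1 double mutants against tdp-1 (nas-7, an astacin protease, log2 fold change -0.88, adjusted p = 0.0377, edgeR) and 14 fell with the block, with a median of -1.34. The chitin synthase chs-1 (0.06), gei-17 (-0.41) and idpp-15 (-0.52), its other abundant members, were not called. They were named for their abundance in whole animals, and whether they act in the pharynx was not tested. In ceh-14 against wild type 6 of 31 fell with the block and in tdp-1 4 of 35 rose, with 0 called without it. The endoplasmic reticulum stress list, to which the abu name refers, had 0 of 20 genes called in tdp-1 double mutants against tdp-1, with and without the block, and a median of -0.34. Its summed level was 6330 to 7530 CPM in tdp-1 double mutants, against 8590 to 9540 CPM in tdp-1 and 7860 to 8070 CPM in wild type. These ranges did not overlap. Of single genes tested in every fit, 15.7% were likewise lower in every tdp-1 double mutant library than in tdp-1. Calreticulin (crt-1) had 1550, 1800 and 1650 CPM in tdp-1 double mutants, against 1950, 2320 and 2190 CPM in tdp-1. The protein disulfide isomerases pdi-3 (-0.44) and pdi-2 (-0.66) and the chaperone hsp-3 (-0.53) had adjusted p-values of 0.125 to 0.157 (edgeR). hsp-4, named after its values were seen as a standard reporter of the unfolded protein response, had 412, 436 and 302 CPM in tdp-1 double mutants, against 478, 475 and 474 CPM in tdp-1. In tdp-1 against wild type 1 of the 20 genes rose with the block and 0 without it.

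Markers of cell types were read in the same way. In tdp-1 double mutants against tdp-1, 0 of 10 genes of pharyngeal muscle and pharynx development were called (median -0.19, 1 fall with the block), 0 of 8 of the pharyngeal gland (-0.42, 1 fall), 0 of 5 of the pharyngeal epithelium and marginal cells (-0.46, 0), 0 of 5 of body wall muscle (-0.61, 0), 0 of 5 of the intestine (-0.43, 1 fall) and 0 of 5 of the germline (0.09, 0). Of 5 hypodermal genes 2 fell (3 with the block, median -1.60), rol-6 (-1.96) and col-10 (-1.75), both cuticle collagens, while col-19, a collagen of the adult cuticle, had 0.55 (adjusted p = 0.126, edgeR) and elt-3 -0.24. Summed levels of the gland list were 28.2 to 71.7 CPM in tdp-1 double mutants, against 27 to 101 in tdp-1 and 31.6 to 72 in wild type. Those of the pharyngeal muscle list were 121 to 315 CPM in tdp-1 double mutants, against 90.9 to 417 in tdp-1 and 91.5 to 409 in wild type, so the groups overlapped in both. Those of the pharyngeal epithelium and marginal cells list were 110 to 262 CPM in tdp-1 double mutants, below the 271 to 315 CPM in tdp-1. Wild type held 236 to 305 CPM, which overlapped both. Of single genes tested in every fit, 15.7% were likewise lower in every tdp-1 double mutant library than in tdp-1. The summed level of the abu paralog group had r = 0.804 with that of the gland list, 0.752 with the molting list, 0.74 with body wall muscle and 0.294 with the endoplasmic reticulum list, over 18 libraries. The values were 0.692 for pharyngeal epithelium and marginal cells, 0.537 for chitin and pharyngeal cuticle, 0.532 for pharyngeal muscle, 0.413 for the intestine and -0.342 for the germline. In the sum of the chitin and pharyngeal cuticle list chs-1 and gei-17 weighed most, with means of 293 and 108 CPM. No other gene of that list exceeded a mean of 12 CPM, so its r says little about its idpc genes. With the hypodermal list r was -0.796, but col-19 made up nearly all of that sum, with a mean of 2870 CPM beside 3.6 to 40.9 CPM for the other genes. Without col-19 the same list had r = 0.737. The part of molting stage, of cell make-up and of single libraries in the levels of the members was not tested.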

How the data were processed

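Poly(A) RNA of 18 libraries, described by the authors as biological triplicates, was sequenced as paired reads. The authors mapped the reads to WBcel235 with STAR 2.5.3a and counted them per gene with HTSeq 0.9.1. The deposited values are whole, unnormalized counts for 46726 genes. The strand setting of the counting is not given in the sources used here. The 5 tallies of unassigned records stayed out of library sizes and tests. Records without a gene made up 0.461% to 0.738%, records of more than 1 gene 1.87% to 2.75%, records of more than 1 position 5.89% to 12.2%, and the other 2 tallies were 0. Gene symbols, positions and exon lengths came from Ensembl and RefSeq annotation of WBcel235. No other samples' columns were present.

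For every comparison, only the libraries of its genotypes entered the edgeR 4.0.16 fit in R 4.3.3 (filterByExpr, TMM, quasi-likelihood test, Benjamini-Hochberg adjustment over all genes tested). The SE of a log2 fold change is its absolute value over the root of F. CPM used TMM-scaled library sizes over all 18 libraries, and log2 CPM a prior count of 2 (for summed levels, 1 CPM was added before the log). Alternatives were DESeq2 1.42.0, its size factors, no filter, all 18 libraries in one fit, the replicate letter as a block and each library left out. Fits with the block that leave out a letter, ratios letter by letter, the abu symbols alone and the hypodermal list without col-19 were added after the data had been seen. On simulated data the fit of tdp-1 double mutants against wild type recovered 86% of 2-fold and 100% of 4-fold changes (16522 genes, 15 false calls), and the interaction of tdp-1 and ceh-14 recovered 29% and 100% (17040 genes, 6 false calls). The simulation gave every gene the same dispersion, held no letter effect and changed only genes with higher counts. Most genes of the abu paralog group varied widely between replicates, so these shares do not tell what changes among them would be found.

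The members, the gene lists and the division of the members were chosen with earlier results of these data known. The division was to rest on protein similarity, but protein sequences were not used here, so a list from general knowledge served in its place. The genes named are pqn-41, all members called with or without the block, the 8 most abundant of each set, the 3 highest and 3 lowest changes against wild type, the 5 non-members most like the abu paralog group and up to 4 abundant genes a list. The other genes named, among them mlt-8, hsp-4, pqn-29, pqn-37, pqn-73, members without a test and the genes most like abu-13 or pqn-41, were chosen after their values were seen.

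Letters were taken to pair libraries where same-letter deviations from the genotype means correlated above 0.1 for all 3 letters. For tdp-1 double mutants against tdp-1 r was 0.494, 0.425 and 0.216, and against wild type 0.632, 0.288 and 0.304. In the comparisons of fust-1 double mutants at least 1 letter fell below (-0.168 against wild type, 0.009 against ceh-14, -0.057 against fust-1). The labels do not say that replicates came from separate cultures, so p-values measure only the spread between these libraries. Gene counts are subject to counting error beside that spread.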

Additional observations from a re-analysis of the deposited data

How the results depend on the processing

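Other settings moved the counts of members called more than their directions. DESeq2 called 2 members in fust-1 double mutants and 4 in tdp-1, each against wild type, and 1 in tdp-1 double mutants against ceh-14, where edgeR called 0. Without the filter on low counts 2 members were called in tdp-1 against wild type. With the replicate letter as a block the counts were 6 (tdp-1 double mutants against wild type), 2 (ceh-14), 10 (tdp-1) and 21 (tdp-1 double mutants against tdp-1), and the block changed no other count. One fit of all 18 libraries left 1 call in tdp-1 double mutants against tdp-1. Leaving out 1 library gave 0 to 5 members in tdp-1 against wild type and 2 to 16 in tdp-1 double mutants against tdp-1. For the fits without the filter, of all 18 libraries or without 1 library, the share of all genes called is not given. Their counts are therefore no result about the members. Leaving out 1 letter with the block gave 4 to 7 (tdp-1 double mutants against wild type), 1 to 19 (ceh-14), 0 to 17 (tdp-1) and 21 to 29 (tdp-1 double mutants against tdp-1, 26 without C). The cause of these moves was not tested.

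Without tdp-1 A the direction of several genes turned. Over all libraries left out, the log2 fold change of tdp-1 double mutants against tdp-1 ranged from -3.11 to 0.084 (abu-1), -3.93 to 0.30 (abu-6), -3.61 to 0.20 (abu-8), -3.50 to 0.42 (abu-10), -3.75 to 0.35 (abu-11), -3.97 to 0.71 (abu-15) and -2.58 to 0.54 (pqn-36). For tdp-1 against wild type it ranged from -0.17 to 2.47 (abu-7), -0.40 to 2.52 (abu-8), -0.45 to 2.56 (abu-10), -0.74 to 2.82 (abu-15), -0.41 to 2.26 (pqn-36) and -0.30 to 2.03 (pqn-54). For pqn-41, values near 0 turned in fust-1 against wild type (-0.63 to 0.27), fust-1 double mutants against fust-1 (-0.17 to 0.71) and against wild type (-0.025 to 0.41) and the interaction of fust-1 and ceh-14 (-0.34 to 0.56). The median of the abu paralog group kept its sign in all 22 values computed with other size factors or with the abu symbols alone. Neither setting could easily turn it. Other size factors moved it little (1.47 to 1.45 in tdp-1 against wild type), and the abu symbols are 10 of the same 16 tested genes. Medians of the group without 1 library are not given. The division by protein similarity was not run.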
